A study of Mus musculus with 12 samples.

Results

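The tumors that 4T1 cells labelled as POGZ knockout formed in mice were compared with cultures of 4T1 cells of the same label. Of the 12 RNA libraries of the study, 6 were used for this comparison, 3 tumors (POGZ_KO_8454, POGZ_KO_8455 and POGZ_KO_8459) and 3 cultures (1, 2 and 3), chosen by their titles. 4T1 is a mouse mammary carcinoma line, derived from a BALB/c mouse and labelled as triple-negative breast cancer. The genotype of all 6 is given as POGZ KO. The labels do not say how the gene was disrupted, or whether the line is a single clone, a pool or several clones. Cultures grew in DMEM with 10% fetal bovine serum and were taken at 75% confluency. For tumors, 50k cells were placed in the mammary fat pad of 8-week-old BALB/c animals, left to grow for 28 days and flash frozen. The other 6 libraries, 3 tumors and 3 cultures labelled VC with genotype POGZ WT, were handled in the same way and serve here as the control-labelled comparison. RNA was sequenced after depletion of ribosomal RNA. Nothing in the labels says that libraries of a culture group came from separate cultures, so every p measures the spread between these libraries, which may be technical.

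A tumor in the fat pad is a mixture. Carcinoma cells grow among fibroblasts that lay down collagen, among blood vessels, and among macrophages, neutrophils and lymphocytes of the host. A culture holds the carcinoma cells alone, on plastic, with serum, oxygen and nutrients in excess. POGZ, with zinc fingers and a partner in the heterochromatin protein HP1, has been tied to chromosome segregation and to gene silencing. Host and carcinoma cells are both of mouse, so the RNA of a gene that both express cannot be split between them. Fewer cells of a type and less RNA per cell cannot be told apart in such bulk RNA. Growth in the animal, host cells, freezing and the separate count table of the tumors all differ between the groups together, and cannot be told apart.

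Total counts were 17258582, 14724518 and 21863223 in the cultures and 12128993, 13043831 and 12184618 in the tumors. The cultures were close replicates, with a median standard deviation (SD) of a gene of 0.077 log2 CPM, against 0.279 among the tumors, over 17311 genes. CPM is a gene's count scaled to the total count of its library. Small structural and ribosomal RNA took 4.55 to 5.28% of counts in cultures, and 6.08, 3.54 and 3.98% in tumors POGZ_KO_8454, POGZ_KO_8455 and POGZ_KO_8459. Tumor POGZ_KO_8454 stood furthest apart: of 10744 well-expressed genes, 320 lay over 2-fold above and 373 over 2-fold below the mean of the other tumors, against 112 and 90 for POGZ_KO_8455 and 159 and 126 for POGZ_KO_8459. Xist, the RNA that coats the inactive X chromosome, stood at 0.985, 0.611 and 0.732 CPM in the cultures and at 662, 1002 and 1592 CPM in the tumors. Ptprc, the leukocyte antigen CD45, stood at 0, 0 and 0.0457 and 160.3, 219 and 549.5 CPM. Both were read after values were seen. Of the receptors whose absence defines triple-negative cancer, Pgr stood at 0, 0.0679 and 0 CPM in cultures and 0.6596, 3.22 and 0.739 CPM in tumors. Esr1 was counted at 40.2, 40.7 and 40.4 and 43.9, 34.8 and 31.4 CPM, and Erbb2 at 59.2, 60.4 and 60.1 and 81.05, 50.1 and 42.2 CPM, so their RNA was present.

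Pogz, the gene named in the label (ENSMUSG00000038902, chromosome 3, 94837567 to 94882326, plus strand, GRCm38), was counted in every library. It stood at 68.4, 67.8 and 68.6 CPM in the cultures and at 131, 106 and 84.5 CPM in the tumors. All tumors lay above all cultures. On the log2 scale the rise was 0.70 ± 0.16 (SE; edgeR, Benjamini-Hochberg adjusted p = 0.00793). An exact permutation test gave a two-sided p = 0.1, the smallest that 3 samples against 3 can give. A count over the whole gene does not show whether the reading frame is intact, so the libraries are called knockout-labelled. The control-labelled tumors showed a log2 fold change of 0.99 over their cultures, and the difference between the effects was -0.33 ± 0.21 (edgeR, Benjamini-Hochberg adjusted p = 0.484).

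Most measured genes moved. Of 17311 genes tested, 10618 (61.3%) passed a Benjamini-Hochberg adjusted p of 0.05 in edgeR's quasi-likelihood test, 6118 higher (35.3%) and 4500 lower (26%) in tumors. The groups did not overlap for 12419 genes (71.7%), 38% with tumors above and 33.7% with tumors below. The median log2 fold change over all genes was 0.13, and 681 of the tested genes had no count in any culture. Among the 10013 genes with at least 10 CPM in cultures, the median was -0.16, with 59.8% called, 21.7% higher and 38.2% lower. These are the shares against which each gene group below is read. Beside CPM, ± is the SD over 3 libraries, and beside a log2 fold change it is the standard error (SE). In the scatter of gene levels, the rises spread over a far wider range than the falls.

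**Figure D1:**
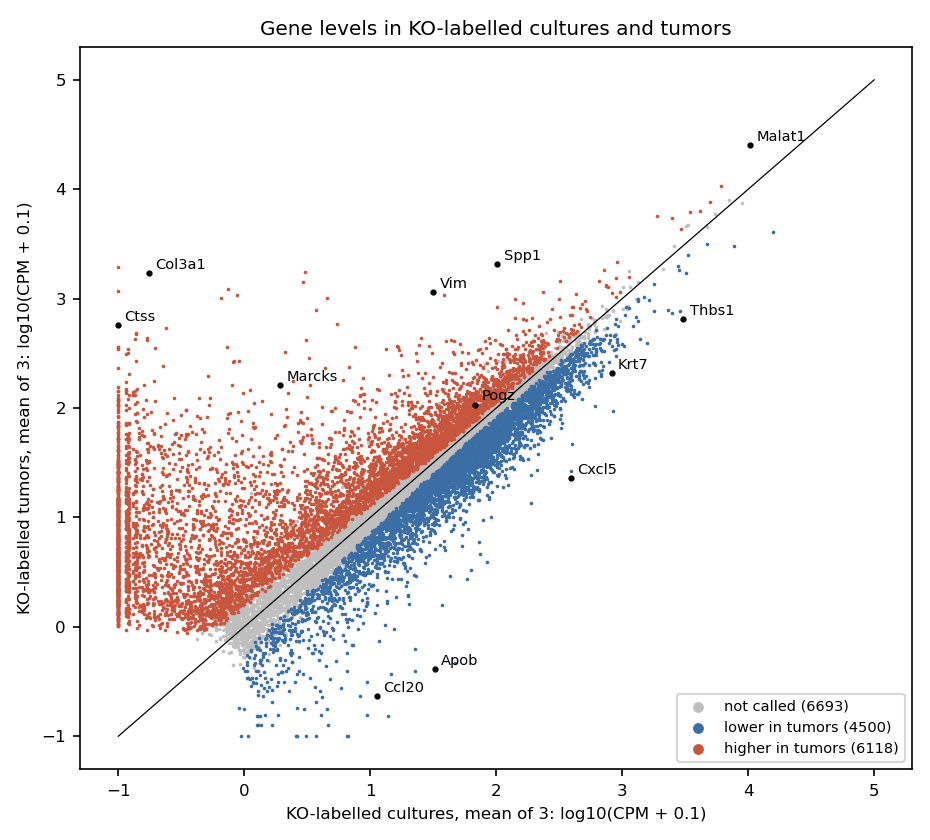
Mean level of each tested gene in the 3 knockout-labelled cultures (horizontal) and the 3 knockout-labelled tumors (vertical), both as log10(CPM + 0.1). Red points are the 6118 genes higher and blue points the 4500 genes lower in tumors, and genes without a count in culture, such as Ctss, line up at the left edge.

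The largest rises were in genes that the cultures did not express. The antibody genes Igkc and Ighg1 had the largest fitted rises among called genes, with by far their highest levels in tumor POGZ_KO_8459, and are described with the plasma cells. Among protein-coding genes the largest was in Ctss. It encodes a lysosomal cysteine protease of antigen-presenting cells. Ctss had no count in any culture and stood at 476, 399.6 and 832 CPM in the tumors. Against a floor of 3 counts per culture library it was at least 3317-fold higher. Selenop, a secreted selenium carrier, and Trf, transferrin, were at least 2124-fold and 2115-fold higher. Fcgr2b, the inhibitory Fc receptor, was at least 1339-fold higher, and Srgn, the proteoglycan of leukocyte granules, at least 907-fold. Laptm5, Nckap1l and Cd53, which are genes of blood cells, were at least 830.5-fold, 715-fold and 696-fold higher, and Col6a2, a collagen VI chain, at least 839.9-fold. Col3a1, fibrillar collagen III, stood at 0.116, 0.0679 and 0.0457 CPM in cultures and 1033, 2422 and 1692 CPM in tumors.

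The largest falls were in genes of moderate level in culture. Adh7, an alcohol and retinol dehydrogenase of epithelia, stood at 47.4, 49.9 and 44.3 CPM in cultures and 0.0824, 0.843 and 0.164 CPM in tumors, a log2 fold change of -6.91 ± 0.48 (SE; edgeR, Benjamini-Hochberg adjusted p = 7.92e-05). Apob, the apolipoprotein of low-density lipoprotein, fell from 32.6 ± 1.91 to 0.314 ± 0.272 CPM (SD, n = 3). The zinc finger gene Zfp979, the GTPase-activating protein gene Arhgap40, the serotonin receptor Htr5b and the transmembrane protease Tmprss11f had log2 fold changes of -6.16, -5.68, -5.33 and -4.59. Pls1, the plastin of epithelial microvilli, stood at 56.9, 63.3 and 55.9 CPM in cultures and 0.989, 3.14 and 3.78 CPM in tumors. Mal2, a protein of transcytosis in polarized epithelia, Mfap3l and Lingo3 had log2 fold changes of -4.23, -4.42 and -4.12.

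Among genes that the cultures did express, at 10 CPM or more, Vim led the rises. Vim, vimentin, the intermediate filament of mesenchymal cells and leukocytes, stood at 30.9, 31.2 and 32.5 CPM in cultures and 945, 1342 and 1180.2 CPM in tumors. It rose by 5.24 ± 0.15 on the log2 scale (SE; edgeR, Benjamini-Hochberg adjusted p = 9.68e-06). Tmsb4x, the actin-sequestering thymosin beta 4, rose from 38.7 ± 0.885 to 1084 ± 239 CPM (SD, n = 3). Mmp3, stromelysin, stood at 14.3, 12.8 and 12.7 CPM in cultures and 109, 704 and 229 CPM in tumors, widely spread but above all cultures. Ctsc, a protease that activates granule enzymes, and Lcp1, the leukocyte plastin, rose by 4.55 ± 0.19 and 4.50 ± 0.24 on the log2 scale. Spp1, osteopontin, rose from 102 ± 3.29 to 2067 ± 146 CPM. Postn, periostin, and the interferon-induced GTPases Gbp7 and Gbp2 had log2 fold changes of 4.16, 4.16 and 4.02, and Csf1r, the receptor of macrophage colony-stimulating factor, one of 3.89.

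Markers of myeloid cells were low or absent in cultures and present in every tumor. All 20 macrophage and monocyte markers passed the expression filter and 20 rose, with a median log2 fold change of 11.40, or 7.45 with the 6 genes at 0 in culture set at their bound. A marker absent from cultures can pass the filter only through its level in tumors, so counts over the markers that passed are a description here and in the lists that follow. Their summed level was 156, 160.3 and 156 CPM in cultures and 4794, 4539 and 6235 CPM in tumors. Spp1, which the cultures expressed, made up most of the culture sum. Adgre1, the macrophage antigen F4/80, and C1qb, a complement chain of tissue macrophages, had no count in culture and were at least 255-fold and 615-fold higher. Ccr2, the chemokine receptor of inflammatory monocytes, had 1 count in the cultures and 121, 115 and 126 CPM in the tumors. Lyz2, lysozyme, stood at 0, 0.0679 and 0.0457 and 607, 301 and 509 CPM, and Apoe, the apolipoprotein of lipid-laden macrophages, rose by 7.80 ± 0.26 on the log2 scale.

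Neutrophil markers rose in 14 of the 14 (of 18) that passed the filter, with summed levels of 39.8, 37.2 and 34.2 CPM in cultures and 414, 959 and 446 CPM in tumors. Tumor POGZ_KO_8455 was the highest. Csf3r, the receptor of granulocyte colony-stimulating factor, stood at 0 in cultures and 32.2, 88.8 and 43.8 CPM in tumors. Cxcr2, a receptor for neutrophil chemokines, stood at 12.5, 35.7 and 10.9 CPM in tumors, S100a8, a calprotectin subunit, at 32.7, 124 and 21.7 CPM, and the decoy receptor Il1r2 at 9.65, 28.1 and 13.5 CPM. Dendritic cell and MHC class II genes rose in 13 of the 14 (of 16) that passed the filter, from a sum of 9.85 to 11.2 CPM to 2224, 1791 and 3149.6 CPM. Cd74, the invariant chain of MHC class II, stood at 0.811, 0.272 and 0.595 CPM in cultures and 950.2, 774 and 1323 CPM in tumors. H2-Aa and H2-Eb1, class II chains, stood at 471, 362 and 616 and 294, 234 and 437 CPM in tumors, with 2 counts and 1 count in the cultures.

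Lymphocyte genes differed widely among the tumors. Of T and NK cell markers 18 of 21 rose, and the summed level in tumors was 95.8, 165 and 311 CPM, against 24.2 to 24.6 CPM in cultures. Cd3e, a chain of the T cell receptor complex, stood at 8.16, 4.29 and 16.99 CPM in tumors with 1 count in cultures, and Cd8a was at least 73.4-fold higher. Gzmb, granzyme B of cytotoxic cells, was at least 125-fold higher, and Il7r stood at 11.05, 40.9 and 43.4 CPM. Foxp3, Trac and Ccl5 did not pass the test: Foxp3 was counted at 13.3, 13.3 and 13.04 CPM in cultures and 10.6, 12.1 and 15.1 CPM in tumors. Without tumor POGZ_KO_8459, 1 of these genes was lower. B and plasma cell genes rose in 6 of the 7 (of 15) that passed the filter, and their sum was 122, 333 and 5406 CPM in tumors. Most of it was antibody RNA in tumor POGZ_KO_8459: Igkc, the kappa light chain, also without a count in cultures, stood at 7.67, 68.2 and 3423 CPM, Jchain, the joining chain of secreted antibody, at 2.64, 22.2 and 1017 CPM and Ighm at 14.2, 64.2 and 281 CPM. Ighg1, the constant part of an IgG heavy chain and not a member of the list, had no count in cultures and stood at 8.41, 22.003 and 5817 CPM (edgeR, Benjamini-Hochberg adjusted p = 0.0395). The count of B and plasma cell genes that rose was 11 without tumor POGZ_KO_8454 and 3 without culture 1 or 3. The expression filter was run again in each such fit, so the genes tested changed. Jchain lost its call without culture 1 or 3. Mast cell genes rose in 6 of the 6 (of 9) that passed the filter, among them Kit, the receptor of stem cell factor, at 21.2, 44.6 and 31.8 CPM and the tryptase Tpsb2 at 1.48, 2.07 and 11.4 CPM.

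Stromal and vascular genes were higher in all 3 tumors. Fibroblast markers rose in 16 of the 17 (of 18) that passed the filter, from 443 to 469.9 CPM to 4443, 8081 and 6336 CPM in sum. Col1a1 and Col1a2, the chains of collagen I, stood at 1343, 2279 and 1605 and 908, 1568 and 1167 CPM in tumors, against 2.78 to 3.06 and 0.543 to 0.732 CPM in cultures. Dcn, decorin, had no count in culture and was at least 431-fold higher. Pdgfra, a growth factor receptor of fibroblasts that the cultures expressed at 15.3 to 16.2 CPM, rose by 2.93 ± 0.15 on the log2 scale. Gsn, gelsolin, did not pass in the full comparison (log2 fold change -0.29), and 1 fibroblast gene was lower without tumor POGZ_KO_8459. Pericyte and smooth muscle genes rose in 12 of the 12 (of 13) that passed the filter, to sums of 302, 374 and 343 CPM. Rgs5, a pericyte regulator of G protein signaling, stood at 86.2, 61.02 and 65.8 CPM in tumors with 1 count in cultures, and Acta2, smooth muscle actin, rose by 6.02 ± 0.33 on the log2 scale. Endothelial genes rose in 18 of the 19 (of 20) that passed the filter, with sums of 531, 670.0 and 642 CPM in tumors. Cdh5, VE-cadherin, stood at 87.3, 90.3 and 70.8 CPM, Pecam1 at 70.7, 102 and 116 CPM, and Vwf, von Willebrand factor, was at least 139-fold higher.

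**Figure D2:**
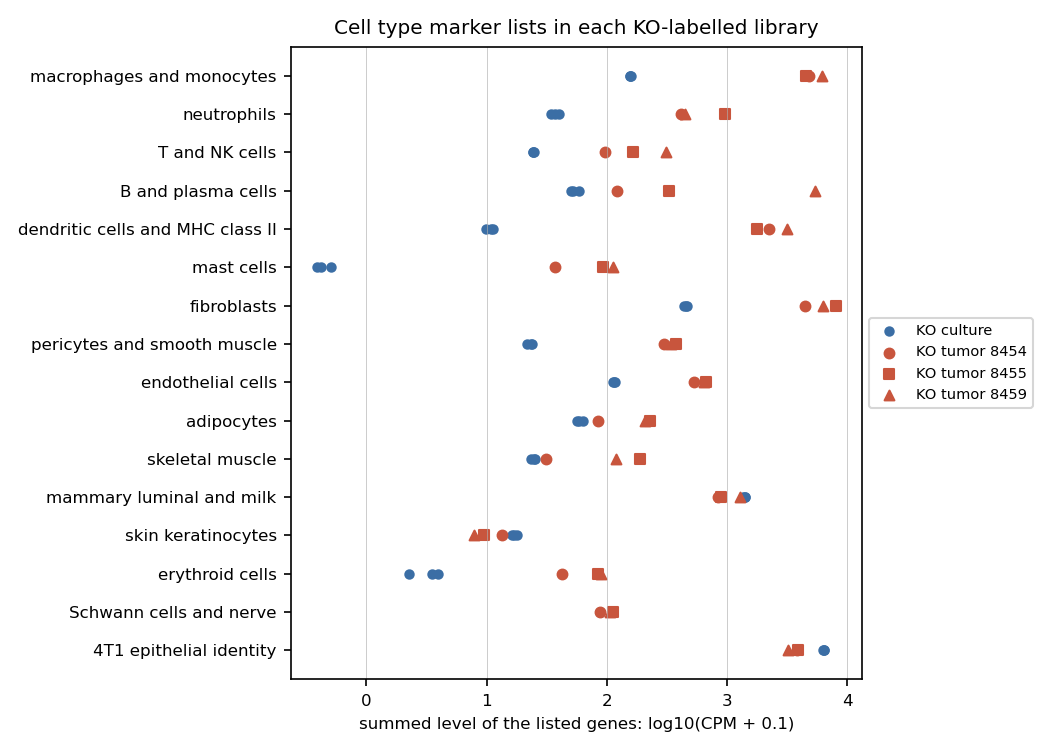
Summed level of each cell type marker list in each knockout-labelled library, as log10(CPM + 0.1). Blue circles are the 3 cultures and red symbols the 3 tumors. Leukocyte, fibroblast and vascular sums lie above all cultures in every tumor, and the antibody genes put tumor POGZ_KO_8459 far to the right in the B and plasma cell row, at 5406 CPM.

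Marker lists of fat, muscle, milk, red blood cells, nerve and skin gave mixed results. Which cells made this RNA was not tested. Adipocyte genes rose in 6 of the 7 (of 14) that passed the filter. Fabp4, a fatty acid binding protein of fat cells, vessels and macrophages, stood at 14.6, 58.8 and 62.05 CPM in tumors. Without tumor POGZ_KO_8454 and with the filter run again, 12 adipocyte genes were higher and 1 lower. Skeletal muscle genes rose in 4 of the 8 (of 15) that passed the filter. Ttn, titin, stood at 5.33, 4.14 and 4.35 CPM in cultures and 10.6, 95.8 and 54.1 CPM in tumors, and Ckm, the muscle creatine kinase, did not pass the filter. The muscle median of 2.14 was 0.72 without tumor POGZ_KO_8455, 0.73 without POGZ_KO_8459, and 1.09 and 0.81 without culture 2 or 3. Milk genes were counted in tumors: Csn2, beta casein, had no count in culture and stood at 11.1, 32.4 and 229.6 CPM, and Prlr, the prolactin receptor, stood at 2.72, 32.4 and 33.9 CPM with 3 counts in cultures. Of the mammary list 8 of the 12 (of 15) that passed the filter rose and 3 fell. The summed level of the list was lower in every tumor, at 836, 896 and 1295 CPM against 1374, 1425 and 1413 CPM in cultures, and most of it was the luminal keratins Krt8 and Krt18, which fell. Erythroid genes rose in 4 of the 4 (of 10) that passed the filter, with Hbb-bs at 16.4, 36.9 and 43.3 CPM, and its reads can be shared with near-identical globin copies. Schwann cell genes rose in 3 of the 7 (of 10) that passed the filter, with Scn7a at 5.28, 21.7 and 17.4 CPM. This share is near the 35.3% of all genes, and the summed level of 87.8 CPM in tumor POGZ_KO_8454 lay within the culture range of 87.6 to 88.5 CPM, with 114 and 107 CPM in the other tumors. Prx lost its call without any 1 of the cultures or tumor POGZ_KO_8455, and without POGZ_KO_8455 1 gene of that list was lower. Skin keratinocyte genes were near 0 in both groups, apart from Krt10, Sbsn and Ivl. Sbsn fell from 10.7 ± 0.335 to 4.004 ± 0.7704 CPM and Ivl from 1.99 ± 0.292 to 0.861 ± 0.401 CPM (SD, n = 3). Ivl lost its call without any 1 of the cultures or tumor POGZ_KO_8455.

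Epithelial genes were lower in tumors for the most part. Of the listed epithelial genes 18 of the 28 (of 30) that passed the filter fell and 4 rose, with a median log2 fold change of -0.83. The summed level was 6341, 6449 and 6396 CPM in cultures and 3827, 3893 and 3223 CPM in tumors, so that no tumor reached a culture. Cdh1, E-cadherin, fell from 996 ± 19.6 to 388 ± 109.9 CPM (SD, n = 3; edgeR, Benjamini-Hochberg adjusted p = 0.00158). Krt7, a keratin of simple epithelia, stood at 805, 829 and 846 CPM in cultures and 163, 267 and 192 CPM in tumors. Krt8 and its partner Krt18 fell by 1.06 and 0.88 on the log2 scale, and Tjp3, a tight junction scaffold, had a log2 fold change of -2.14 ± 0.17. The genes that rose were Epcam, the epithelial adhesion molecule, at 0.80 ± 0.08, the laminin receptor chain Itgb4 at 0.95 ± 0.08, and the basal genes Krt14 and Trp63 at 3.13 ± 0.68 and 3.18 ± 0.45. Krt14 stood at 8.16, 64.02 and 42.5 CPM in tumors POGZ_KO_8454, POGZ_KO_8455 and POGZ_KO_8459. Krt5, a listed keratin that was not among the genes called, had 2 counts in all cultures together and 153 in all tumors together. The leukocyte and stromal sums given above moved with these falls, and their part in them was not tested.

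Collagens and matrix proteins made up a larger share of tumor RNA. In that list 24 of 30 rose and 1 fell, with a median log2 fold change of 7.11, or 6.32 with genes at 0 in culture at their bound. The summed level was 8381, 8665 and 8378 CPM in cultures and 18798, 26227 and 19883 CPM in tumors. Fn1, fibronectin, was abundant in both groups and rose from 1877 ± 49.03 to 5725 ± 622 CPM (SD, n = 3). Tnc, tenascin C, rose from 4.46 ± 0.4298 to 1014 ± 462 CPM and Col6a1, a collagen VI chain, from 0.126 ± 0.0538 to 242 ± 13.8 CPM. The basement membrane chains Col4a1 and Col4a2, which the cultures expressed at 463 and 344 CPM on average, rose by 0.89 ± 0.13 and 0.70 ± 0.18 on the log2 scale. The laminin chains Lama5, Lamb1 and Lamb3 stood at 0.07, 0.07 and 0.06 and did not pass. Thbs1, thrombospondin 1, fell from 3058 ± 65.2 to 653 ± 285 CPM, while Thbs2 rose from 0.0684 ± 0.0686 to 440.3 ± 224 CPM. Without tumor POGZ_KO_8454, 2 genes of the list were lower.

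Proteases and crosslinking enzymes of the matrix rose in 20 of the 28 (of 29) that passed the filter and fell in 3, with a median of 2.79. Mmp12, the macrophage elastase, stood at 0.579, 0.951 and 0.595 CPM in cultures and 148, 324 and 323 CPM in tumors, and Mmp13, a collagenase, rose from 5.34 ± 0.732 to 589 ± 421 CPM (SD, n = 3). Lox, lysyl oxidase, stood at 132 CPM in tumors on average against 0.0305 CPM in cultures. Timp3, a protease inhibitor bound to the matrix, rose by 6.64 ± 0.41 on the log2 scale and Serpine2, protease nexin 1, from 0.0651 ± 0.0689 to 33.7 ± 11.1 CPM. The 3 that fell were Htra1, a secreted serine protease, from 483 ± 11.4 to 121 ± 16.2 CPM, Adamts1 by 1.60 and Timp2 by 0.93 on the log2 scale.

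TGF-beta signals through a pair of receptor kinases and SMAD proteins, and its targets include matrix genes and its own inhibitors. Of the listed targets 21 of 32 rose and 6 fell, with a median log2 fold change of 1.08. Several are also fibroblast or smooth muscle genes, such as Col1a1, Acta2, Tagln and Postn, and their part in the count was not tested. Targets that the cultures expressed went both ways. Smad7, the inhibitory SMAD, rose from 44.8 ± 1.64 to 90.5 ± 18.01 CPM (SD, n = 3; edgeR, Benjamini-Hochberg adjusted p = 0.00115). Skil and Ski, repressors of SMADs, rose by 1.09 ± 0.17 and 0.67 ± 0.22, and Pmepa1, another inhibitor, by 0.57 ± 0.13 on the log2 scale. Tgfbi rose from 0.725 ± 0.0743 to 270.5 ± 121 CPM. Those that fell were Ccn2, connective tissue growth factor, from 435 ± 12.8 to 135 ± 64.96 CPM, Itgb6, an integrin chain that activates latent TGF-beta, from 118 ± 1.71 to 24.5 ± 12.8 CPM, and Tpm1, Nuak1, Actn1 and Itgav. Junb stood at 0.36 and did not pass.

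Among ligands, receptors and SMADs 16 of the 28 (of 33) that passed the filter rose and 2 fell. Tgfb1 stood at 28.6, 29.5 and 29.9 CPM in cultures and 59.5, 67.8 and 76.2 CPM in tumors, and Tgfb3 rose by 1.16 ± 0.40 on the log2 scale, while Tgfb2 fell from 23.9 ± 0.738 to 10.1 ± 2.700 CPM and Bmp7 by 1.61 on the log2 scale. Tgfbr1, the type I receptor, rose from 88.4 ± 7.14 to 285 ± 81.2 CPM (SD, n = 3). Tgfbr2, the type II receptor, stood at -0.34 ± 0.15 on the log2 scale and did not pass (edgeR, Benjamini-Hochberg adjusted p = 0.0848). The activin chains Inhba and Inhbb rose by 1.42 ± 0.14 and 4.61 ± 0.35, and Acvrl1, an endothelial receptor with no count in cultures, was at least 86.1-fold higher. Without tumor POGZ_KO_8454 or POGZ_KO_8459, 4 of these genes were lower, and the median moved from 0.72 to 0.32 without POGZ_KO_8454.

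Genes of epithelial-mesenchymal transition (EMT), by which epithelial cells gain mesenchymal features, rose in 17 of the 18 (of 19) that passed the filter. Fibroblasts and other host cells express them too. Zeb1, a repressor of Cdh1, stood at 0.2897, 0.136 and 0.0915 CPM in cultures and 27.2, 42.2 and 45.5 CPM in tumors. Zeb2 rose from 31.04 ± 1.09 to 315 ± 86.8 CPM (SD, n = 3), Prrx1 from 0.172 ± 0.0333 to 77.03 ± 35.9 CPM and Cdh11, a mesenchymal cadherin, from 0.183 ± 0.121 to 58.1 ± 11.2 CPM. Snai1 rose by 0.59 ± 0.19 and Twist1 by 1.25 ± 0.23 on the log2 scale. Axl, a receptor kinase, stood at -0.19 and did not pass. Without tumor POGZ_KO_8454 or POGZ_KO_8455, 1 of these genes was lower. Of the inhibitors of differentiation, Id2 rose from 5.13 ± 0.447 to 36.6 ± 11.1 CPM, while Id1 and Id3 stood at 0.02 and 0.46 on the log2 scale and did not pass. Id4, which did not pass the expression filter, stood at 0.174, 0 and 0.0457 CPM in cultures and 0.412, 2.45 and 2.13 CPM in tumors. It entered the test and rose when tumor POGZ_KO_8454 or any 1 culture was left out, and the median of 0.46 was then 1.57 to 1.70.

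**Figure D3:**
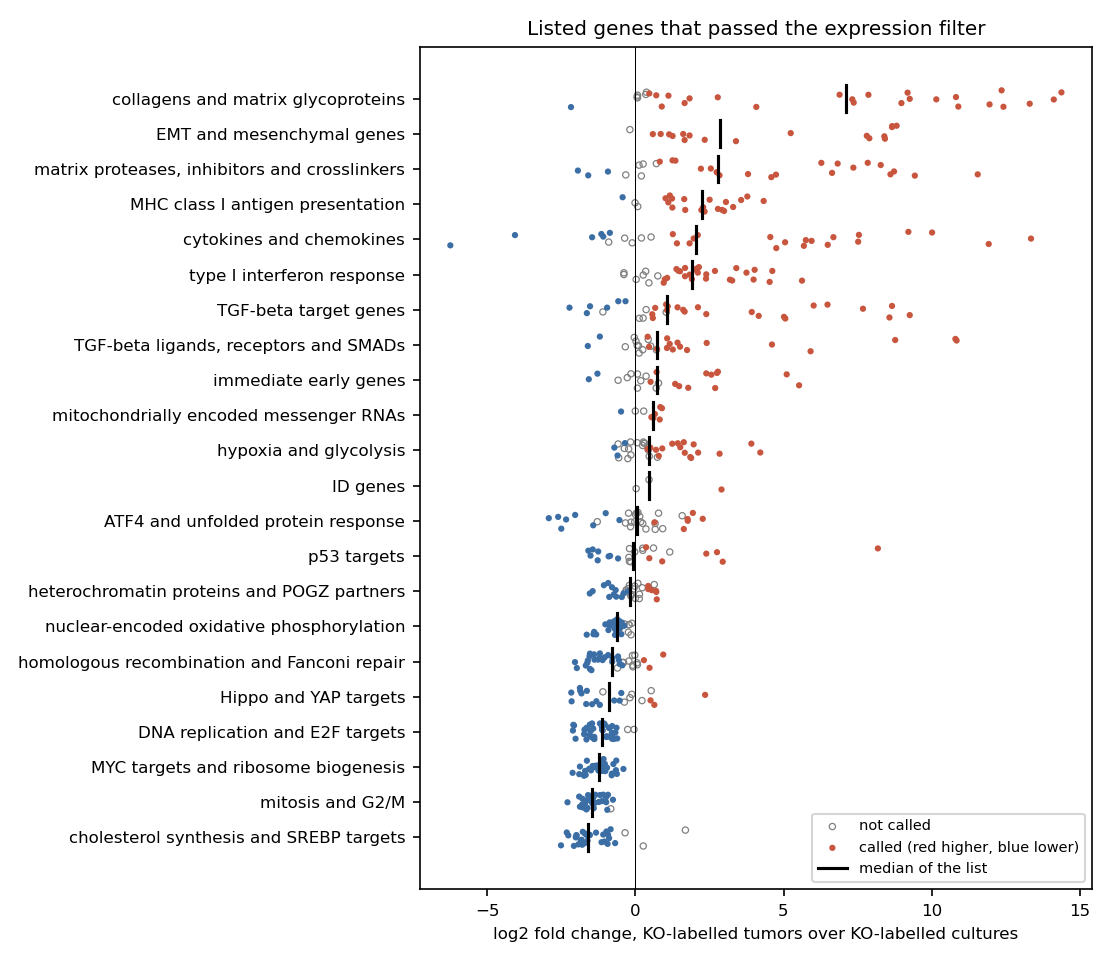
Log2 fold change of each gene of the pathway lists that passed the expression filter, tumors over cultures, by list. Filled points passed the test (red higher, blue lower), open points did not, and the black bar is the list's median. Of these lists, collagens and matrix glycoproteins have the highest median, 7.11, and nearly all genes of sterol synthesis, mitosis, ribosome biogenesis and replication lie below 0.

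Interferon signals switch on antiviral genes through factors, IRF9 among them, that bind the interferon-stimulated response element. Of the listed genes 26 of 33 rose and 0 fell, with a median of 1.90. The summed level was 798, 783 and 775 CPM in cultures and 2018, 3602 and 3693 CPM in tumors, lowest in tumor POGZ_KO_8454. Irf9 rose from 22.8 ± 1.02 to 88.6 ± 3.02 CPM (SD, n = 3). The GTPases Gbp2 and Gbp3 stood at 248, 437 and 451 and 92.7, 149 and 162 CPM in tumors, against 22.96 to 24.9 and 13.9 to 15.3 CPM in cultures. Zbp1, a sensor of Z-form nucleic acid, rose from 2.06 ± 0.269 to 98.9 ± 42.6 CPM. Other classic members did not pass: Rsad2 stood at 0.02 ± 0.60 on the log2 scale with 8.49, 66.5 and 32.99 CPM in tumors POGZ_KO_8454, POGZ_KO_8455 and POGZ_KO_8459, Isg15 at 0.45 ± 0.43 and Ifit2 at 0.34 ± 0.40.

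The promoter windows of RefSeq hold 250 bases before and 50 after a gene's start, on GRCm38.p6. In these windows the core of the interferon-stimulated response element, TTTCNNTTT on either strand, was found for 18 of 23 interferon genes that had a window, and for 12.1% of all 27025 genes with a window. Of the genes with the core 13 of 18 rose, and of those without it 3 of 5. Gbp2 is shown as a listed gene with the core that was higher in all 3 tumors. The 250 bases before its start on the plus strand (chr3:142620413-142620662) are given, with the core in capitals.
Gbp2: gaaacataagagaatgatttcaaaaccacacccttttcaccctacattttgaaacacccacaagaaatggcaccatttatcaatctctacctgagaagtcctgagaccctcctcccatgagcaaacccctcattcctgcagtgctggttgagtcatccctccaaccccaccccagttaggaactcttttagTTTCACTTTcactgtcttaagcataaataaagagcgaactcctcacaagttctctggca

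MHC class I presents peptides to cytotoxic T cells. Its genes rose in 19 of 22, with a median of 2.26. B2m, the light chain, stood at 330.1, 318 and 317 CPM in cultures and 1386, 1388 and 1588 CPM in tumors, and H2-K1 and H2-D1, the classical heavy chains, rose by 2.29 ± 0.12 and 2.33 ± 0.13 on the log2 scale. Nlrc5, the transactivator of class I genes, rose from 23.3 ± 1.62 to 267 ± 23.4 CPM (SD, n = 3). Tap1, a subunit of the peptide transporter, rose from 11.3 ± 0.864 to 149 ± 57.5 CPM, and the immunoproteasome subunits Psmb8 and Psmb9 by 3.05 ± 0.19 and 4.33 ± 0.28. Reads of H2 genes can be shared among near-identical copies, so single H2 values are less certain. The chaperone Canx fell by 0.43 on the log2 scale, a call lost without tumor POGZ_KO_8455 or any 1 culture, and Calr and Pdia3 stood at -0.01 and 0.08 and did not pass.

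Cytokines went both ways, with 19 of the 30 (of 33) that passed the filter up and 6 down. Those that fell were expressed by the cultures, as a call of lower in tumors requires. Cxcl5, a neutrophil chemokine, fell from 391 ± 12.6 to 22.6 ± 17.6 CPM (SD, n = 3), and Ccl20, a chemokine of dendritic and T cells, from 11.1 ± 0.586 to 0.132 ± 0.0853 CPM. Csf1, the growth factor of macrophages, fell from 299 ± 9.67 to 105 ± 4.64 CPM, while its receptor Csf1r rose as given above. Cxcl1, Lif and Ccl2 fell by 1.15, 1.09 and 0.86 on the log2 scale. Among those that rose, Il1b stood at 3.19, 3.26 and 3.202 CPM in cultures and 98.2, 234 and 151 CPM in tumors. Cxcl9, an interferon-gamma chemokine for T cells, rose from 0.145 ± 0.0344 to 89.8 ± 49.2 CPM. Cxcl12, a stromal chemokine, had no count in cultures and was at least 183-fold higher. Il33, an alarmin, rose from 0.412 ± 0.0639 to 36.2 ± 28.05 CPM and Vegfa, the endothelial growth factor, from 22.5 ± 0.984 to 85.1 ± 22.2 CPM. The median of 2.03 was 3.22 and 2.68 without culture 2 or 3 and 3.18 without tumor POGZ_KO_8454.

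Low oxygen stabilizes HIF factors, which raise glycolysis and angiogenesis genes. Of the listed genes 17 of 35 rose and 3 fell, with a median of 0.46. Those that rose included HIF targets outside glycolysis. Car9, a carbonic anhydrase of hypoxic cells, rose from 4.48 ± 0.419 to 31.2 ± 10.8 CPM (SD, n = 3), the prolyl hydroxylase Egln3 from 29.1 ± 1.56 to 103 ± 53.9 CPM, Bnip3, a mitophagy receptor, from 15.1 ± 0.356 to 52.6 ± 7.51 CPM and the demethylase Kdm3a from 52.8 ± 1.62 to 158 ± 18.1 CPM. Slc16a3, the lactate exporter, rose by 4.22 ± 0.29 and Adm, adrenomedullin, by 3.91 ± 0.50 on the log2 scale. Of the glycolytic enzymes, Pfkp rose by 0.69 ± 0.22 and Eno1 fell by 0.71, while Aldoa, Tpi1, Ldha and Pkm stood at 0.27, 0.06, -0.38 and -0.59 and did not pass. Gapdh was counted at only 6.13 CPM in cultures, and it has many near-identical copies in the genome. The count of lower genes was 5 without tumor POGZ_KO_8454 and 7 without POGZ_KO_8455. The HIF core ACGTG was found in the windows of 23 of 32 of these genes, against 21.8% of all genes with a window, and 10 of the 23 with it rose, as did 5 of the 9 without it. Egln3 is shown, as an oxygen sensor that was higher in all 3 tumors, for the 250 bases before its start on the minus strand (chr12:54203875-54204124), with the core in capitals.
Egln3: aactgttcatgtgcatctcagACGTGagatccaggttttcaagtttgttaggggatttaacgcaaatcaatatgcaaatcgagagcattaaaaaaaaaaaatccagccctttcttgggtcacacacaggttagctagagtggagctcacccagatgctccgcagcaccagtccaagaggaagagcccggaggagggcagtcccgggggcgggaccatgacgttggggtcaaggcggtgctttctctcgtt

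Sterol synthesis genes fell together. SREBP2 raises these genes when membrane cholesterol is low, and lipoprotein uptake shuts them off. Of the listed genes 28 of the 31 (of 32) that passed the filter fell and 0 rose, with a median of -1.62. The summed level was 8099.7, 8124 and 7931 CPM in cultures and 2305, 3268 and 2857 CPM in tumors, below every culture in every tumor. Insig1, which holds SREBP in the endoplasmic reticulum, fell from 325 ± 7.095 to 65.3 ± 12.3 CPM (SD, n = 3; edgeR, Benjamini-Hochberg adjusted p = 5.44e-05). Hmgcs1, an early enzyme of the pathway, fell from 412 ± 7.18 to 127 ± 46.3 CPM. The fatty acid genes Fasn, Acaca and Scd2 fell by 1.33, 0.98 and 1.85 on the log2 scale. Scd1 went the other way without passing, at 82.9, 81.6 and 78.7 CPM in cultures and 35.1, 379 and 345 CPM in tumors. Tumor POGZ_KO_8454 was the low one, and Scd1 passed as higher without it. The sterol regulatory element TCACCCCAC was found in the window of Hmgcs1 alone among 22 of these genes, and for 0.61% of all genes with a window.

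ATF4 raises amino acid synthesis genes when amino acids run short, and IRE1 and ATF6 raise chaperones when protein folding fails. Members of the list went both ways. Of the 8 that fell, Psat1, an enzyme of serine synthesis, stood at 207, 213 and 212 CPM in cultures and 16.9, 27.1 and 36.4 CPM in tumors, and Shmt2, Mthfd2, Asns and the transporter Slc7a5 fell by 2.04, 2.61, 2.50 and 2.34 on the log2 scale. Slc7a11, the cystine transporter, rose from 14.1 ± 1.06 to 46.2 ± 4.65 CPM (SD, n = 3), and Dnajb9 and Herpud1, genes of protein folding, by 1.76 ± 0.19 and 0.64 ± 0.24. In all 6 of 32 rose and 8 fell, with a median of 0.06. Xbp1, the factor of secretory cells, stood at 91.7, 129 and 354 CPM in tumors POGZ_KO_8454, POGZ_KO_8455 and POGZ_KO_8459 against 48.8 to 57.2 CPM in cultures, and Creld2, a folding gene, at 12.8, 17.2 and 126 CPM. Tumor POGZ_KO_8459 also held the antibody RNA, and the part of plasma cells in these values was not tested. Without tumor POGZ_KO_8459 the count of lower genes was 14 and the median -0.29, and without tumor POGZ_KO_8454 the count of higher genes was 11. The shares called in the full comparison lay under the 35.3% higher and 26% lower of all genes.

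Genes of oxidative phosphorylation split by genome. Of the nuclear-encoded genes 27 of 34 fell and 0 rose, with a median of -0.63, and the sum moved from 4848, 4851 and 4862 CPM to 2555, 2579.9 and 2667 CPM. Atp5b, the catalytic subunit of ATP synthase, stood at 1387, 1368 and 1374 CPM in cultures and 369, 454 and 453 CPM in tumors. Uqcrc1 of complex III fell from 205 ± 6.53 to 75.4 ± 12.8 CPM, and Cyc1 of the same complex by 1.33 on the log2 scale. Of the messages of the mitochondrial genome 6 of the 9 (of 13) that passed the filter rose and 1 fell, with a median of 0.60. mt-Nd4 rose from 3419.9 ± 162 to 6139.6 ± 338 CPM (SD, n = 3), mt-Co1 from 6135 ± 530.1 to 10606 ± 1489 CPM and mt-Cytb by 0.66 ± 0.11 on the log2 scale. mt-Nd3 fell by 0.49, a call lost without any 1 culture. mt-Co2, mt-Co3, mt-Atp6 and mt-Atp8 were at or near 0 in all libraries, although every cell uses them.

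MYC and its ribosome biogenesis targets fell in 34 of 34, with a median of -1.22. Their sum was 9117, 9086 and 9306 CPM in cultures and 2835, 3839 and 3447 CPM in tumors. Myc itself fell from 364 ± 6.92 to 159 ± 39.8 CPM (SD, n = 3). Ncl, nucleolin, fell from 2495 ± 52.02 to 743 ± 174 CPM, Odc1, the first enzyme of polyamine synthesis, from 213 ± 6.59 to 47.2 ± 8.75 CPM and Nop56, a core protein of small nucleolar particles, from 277 ± 8.61 to 113 ± 7.34 CPM. Cad, the enzyme that opens pyrimidine synthesis, fell by 1.75 and the mitochondrial chaperone Hspd1 by 1.74 on the log2 scale.

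Replication genes fell in 38 of 40, with a median of -1.13 and sums of 3817, 3844 and 3846 CPM in cultures and 1124, 1514 and 1793 CPM in tumors. The subunits of the MCM helicase fell together. Mcm5 stood at 209, 225 and 236 CPM in cultures and 25.5, 59.9 and 74.03 CPM in tumors, and Mcm6 at 292, 286 and 289 and 69.2, 110.4 and 141 CPM. Mcm2, Mcm3, Mcm4 and Mcm7 had log2 fold changes of -1.65, -1.73, -1.47 and -0.73. Rrm2, a subunit of ribonucleotide reductase, fell from 200.1 ± 2.696 to 44.7 ± 25.02 CPM (SD, n = 3), and Pole, the leading-strand polymerase, from 187 ± 3.21 to 42.8 ± 17.5 CPM. Pcna, the sliding clamp, fell by 1.11 on the log2 scale. Rfc3 and E2f2 stood at -0.26 and -0.05 and did not pass. For each of these genes except E2f2, every tumor lay below every culture.

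E2F factors drive these genes at the start of S phase. An E2F site, TTTCGCGC or TTTGGCGC on either strand, was found in the windows of 11 of 32 replication genes, against 0.93% of all genes with a window, and the letters of these forms overlap when they face each other. Of the genes with a site 9 of 11 fell and of those without it 21 of 21. Mcm5 (plus strand, chr8:75109259-75109508) and Mcm6 (minus strand, chr1:128359706-128359955) are shown because both helicase subunits were lower in every tumor and both carry sites that face each other, in capitals, within the 250 bases before their starts. Counted from the first base shown, the matches begin at 98 and 102 in Mcm5 and at 141, 145 and 204 in Mcm6.
Mcm5: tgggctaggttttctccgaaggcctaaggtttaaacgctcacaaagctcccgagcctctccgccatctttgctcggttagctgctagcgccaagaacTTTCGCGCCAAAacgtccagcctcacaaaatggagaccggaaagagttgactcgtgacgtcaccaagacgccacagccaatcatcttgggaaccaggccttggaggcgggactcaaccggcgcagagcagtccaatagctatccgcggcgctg
Mcm6: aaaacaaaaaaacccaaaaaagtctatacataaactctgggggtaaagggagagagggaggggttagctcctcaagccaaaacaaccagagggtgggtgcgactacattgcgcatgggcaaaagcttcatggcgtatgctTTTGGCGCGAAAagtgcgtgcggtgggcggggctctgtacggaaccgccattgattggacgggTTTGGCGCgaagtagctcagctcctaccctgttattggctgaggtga

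Mitosis genes fell in 33 of 34, with a median of -1.46. The sum was 5764, 5669 and 5622 CPM in cultures and 1294, 2445 and 3206 CPM in tumors, so that tumors POGZ_KO_8454 and POGZ_KO_8459 differed by 2.48-fold. Ccnb2, a mitotic cyclin, fell from 139 ± 2.61 to 27.4 ± 13.01 CPM (SD, n = 3), the kinase Aurka from 64.1 ± 0.721 to 16.6 ± 5.73 CPM and Tpx2, its activator, from 222 ± 2.89 to 60.5 ± 24.2 CPM. Top2a, topoisomerase II, fell by 1.13 on the log2 scale. Mki67, the antigen Ki-67, stood at 909, 882 and 864 CPM in cultures and 249, 421 and 768 CPM in tumors and did not pass (edgeR, Benjamini-Hochberg adjusted p = 0.0903). Of the homologous recombination and Fanconi genes 23 of 36 fell and 3 rose, with a median of -0.78. Brca2 fell from 154 ± 7.83 to 56.4 ± 9.71 CPM and Exo1, an end-resecting nuclease, from 42.3 ± 3.16 to 9.92 ± 5.12 CPM. Fancc, Slx4 and Mus81 rose by 0.94 ± 0.15, 0.29 ± 0.10 and 0.47 ± 0.17, and 1 of the 3 was called without tumor POGZ_KO_8455 or any 1 culture.

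Other groups were split. Of p53 targets 7 of the 24 (of 25) that passed the filter rose and 8 fell. Trp53inp1 rose from 18.5 ± 0.773 to 137 ± 113 CPM (SD, n = 3) and Cdkn1a, the p21 inhibitor, from 4.42 ± 0.756 to 22.5 ± 11.8 CPM, while Perp, a desmosomal protein, fell from 325 ± 7.301 to 115 ± 33.6 CPM and Plk2 by 1.59 on the log2 scale. These shares were near those of all genes tested. Mdm2 stood at 0.24 ± 0.15 and did not pass. The median of -0.09 turned to 0.081 without tumor POGZ_KO_8454. Immediate early genes rose in 12 of 23 and fell in 2, or in 4 without tumor POGZ_KO_8455. Fos rose by 2.69 ± 0.30, Egr2 by 5.11 ± 0.38 and Klf4 by 2.39 ± 0.16, while Jund and Ier3 fell by 1.28 and 1.58. Hippo and YAP targets fell in 13 of the 22 (of 23) that passed the filter and rose in 3, with a median of -0.91. Wwc1, the Hippo regulator KIBRA, fell from 236 ± 1.799 to 51.2 ± 8.17 CPM, Ankrd1, a YAP target, from 205 ± 7.47 to 62.8 ± 40.01 CPM and Ajuba by 1.82, while Nt5e, the ectonucleotidase CD73, rose from 88.3 ± 1.06 to 436 ± 170.3 CPM.

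Heterochromatin proteins and POGZ partners went both ways. Of 32 listed genes 6 rose, Pogz among them, and 12 fell, with a median of -0.18. Among all genes of at least 10 CPM in cultures 21.7% rose and 38.2% fell, with a median of -0.16. The list as a whole lay near these values. Cbx5, the HP1 alpha protein, fell from 539.7 ± 16.2 to 301 ± 35.7 CPM (SD, n = 3), while Cbx1 and Cbx3, the other HP1 proteins, stood at -0.02 and -0.15 and did not pass. Dnmt1, the maintenance DNA methyltransferase, fell from 449.9 ± 1.19 to 208 ± 58.3 CPM and Uhrf1, its partner, from 162 ± 1.86 to 53.6 ± 19.5 CPM. Trim28, a corepressor that binds HP1, fell by 0.46 on the log2 scale and L3mbtl2 by 1.45. Mga, a MAX partner, rose from 152 ± 3.78 to 237 ± 25.4 CPM and Atrx by 0.43 ± 0.08. Setdb1 and Adnp stood at 0.08 and 0.23 and did not pass.

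The 3 tumors differed in which groups were high. The B and plasma cell sum spanned 44.3-fold, the muscle sum 5.997-fold and the T and NK sum 3.25-fold, against 1.04-fold for nuclear-encoded oxidative phosphorylation and 1.01-fold for heterochromatin proteins. Tumor POGZ_KO_8454 was lowest in interferon, mitosis, T cell and muscle sums, and it held the largest share of small structural RNA. Tumor POGZ_KO_8455 was highest in neutrophil genes and in matrix proteases, and POGZ_KO_8459 in antibody, T cell and mitosis genes. Genes without a count in any culture took 0.738, 1.06 and 3.10% of the counts of tumors POGZ_KO_8454, POGZ_KO_8455 and POGZ_KO_8459.

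**Figure D4:**
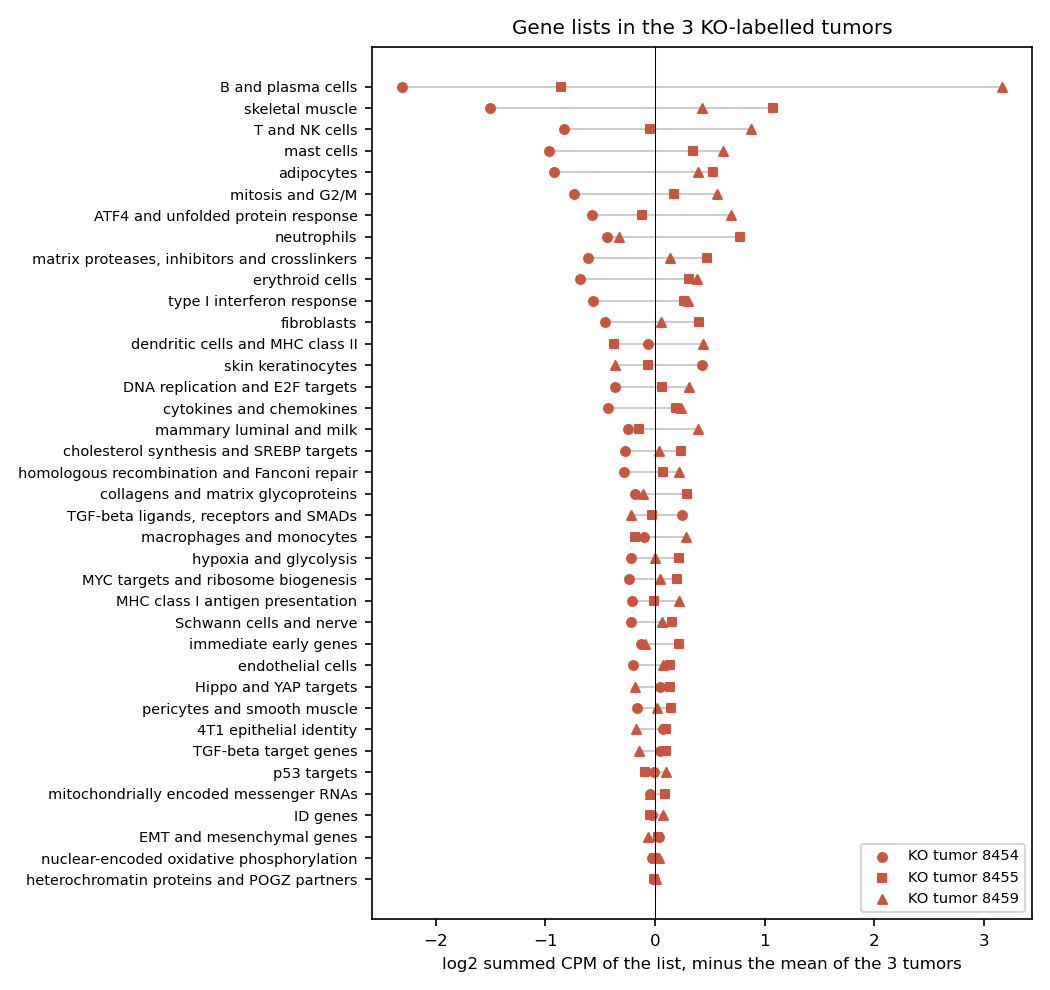
Summed CPM of each list in the 3 knockout-labelled tumors, on the log2 scale and relative to their mean, with lists ordered by their spread. Circles, squares and triangles are tumors POGZ_KO_8454, POGZ_KO_8455 and POGZ_KO_8459. The spread is widest for B and plasma cell genes, 44.3-fold, and POGZ_KO_8454 lies at the low end of most of the widely spread lists.

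The same contrast was made between control-labelled tumors and cultures. Among control-labelled libraries 11172 of 17123 genes (65.2%) passed the test. No library is shared between the comparisons. Of 16744 genes tested in both, 8590 were called in the same direction, 84.4% of the genes called in knockout-labelled and 78.9% of those called in control-labelled libraries, and 51 in opposite directions. Listed groups had medians, knockout-labelled first, of -1.62 and -1.45 for sterol synthesis, -1.22 and -1.30 for ribosome biogenesis and 1.90 and 3.20 for interferon genes. Gaps were wider for B and plasma cells (10.70 and 3.47), mammary genes (5.36 and -0.33) and adipocytes (5.62 and 1.47). These medians cover genes that passed the filter in knockout-labelled libraries, some without a count in their cultures. Of the 9, 12 and 11 genes of these lists in the difference test given next, 0 passed. The difference between the effects was tested over all 12 libraries as the interaction of label and system. It passed for 377 of 18419 genes (2.05%), 209 with the larger log2 fold change in knockout-labelled libraries (1.13%) and 168 with the smaller (0.912%). An unadjusted p under 0.05 was found for 2831 genes. The count was 1588 without knockout-labelled tumor POGZ_KO_8454, 629 without control-labelled tumor POGZ_VC_8448, and 147 to 165 without any 1 of the cultures.

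Marcks, a substrate of protein kinase C that binds actin, had the smallest p. It stood at 1.45, 1.63 and 2.42 CPM in knockout-labelled cultures and 137, 149.8 and 196 CPM in their tumors, and at 75.4, 78.2 and 75.4 and 127, 101 and 123 CPM in the control-labelled ones. The knockout-labelled cultures were the low group, and the knockout-labelled tumors were the highest. The effects differed by 5.81 ± 0.27 on the log2 scale (SE; edgeR, Benjamini-Hochberg adjusted p = 1.38e-06). Zfhx4, Gramd1b, Armcx4 and the pseudogene Rps6-ps1 were likewise lowest in the knockout-labelled cultures, with differences of 5.73 ± 0.41, 5.27 ± 0.41, 6.65 ± 0.52 and 3.71 ± 0.29. Tns4, a focal adhesion tensin, stood at 52.4, 52.3 and 52.7 and 259, 241 and 236 CPM in knockout-labelled cultures and tumors, and at 251, 240.4 and 237 and 328, 372 and 275 CPM in the control-labelled ones. Id2 rose in knockout-labelled and fell in control-labelled tumors, where it stood at 102, 87.2 and 85.95 CPM in cultures and 31.6, 31.5 and 47.97 CPM in tumors (difference 4.13 ± 0.33). Hsd17b11, a lipid droplet dehydrogenase, was the reverse case: the control-labelled cultures were near 0, at 0.0565, 0.0536 and 0 CPM, and the difference was -5.84 ± 0.57. Csgalnact1, which starts chondroitin chains, and Lcp1 rose more in knockout-labelled libraries, by 2.07 ± 0.18 and 2.92 ± 0.28. Of the 377 genes, 307 (81.4%) had a larger gap between the cultures of the 2 labels than between their tumors, with median gaps of 1.06 and 0.36 on the scale of log2(CPM + 0.5). Over all 18419 genes tested it was 9193 (49.9%), with median gaps of 0.18 and 0.19. This split was taken after values were seen, and the cultures also varied less.

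**Figure D5:**
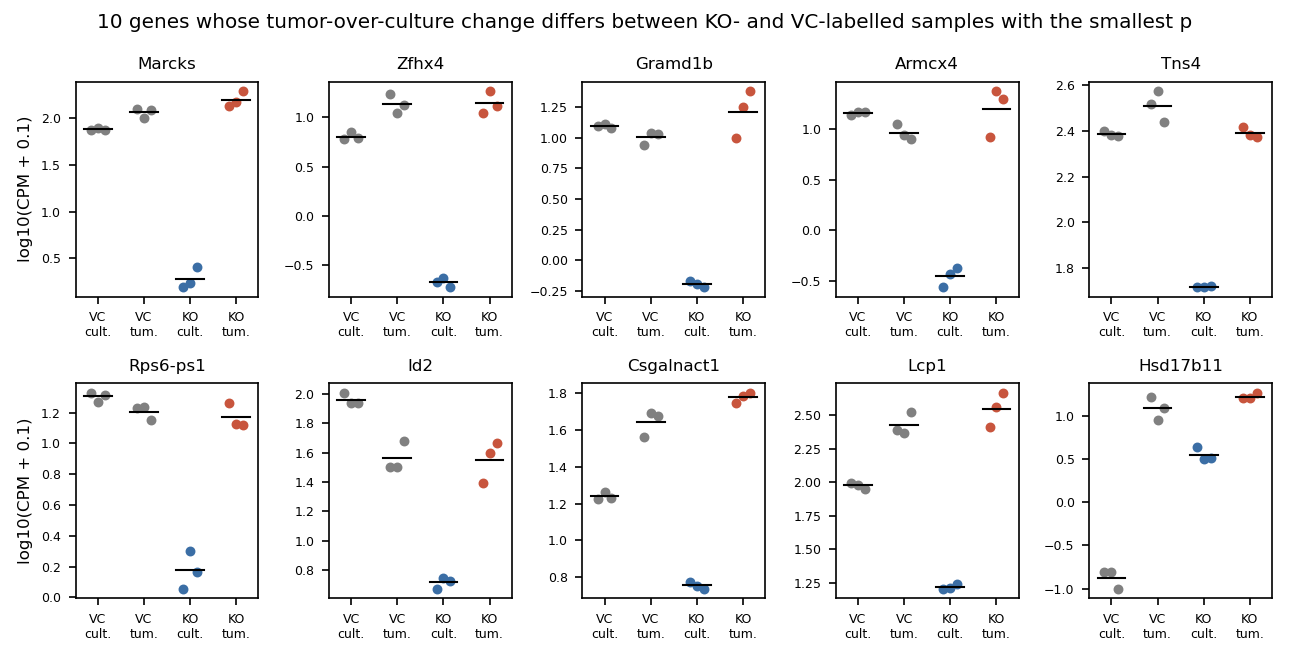
Levels as log10(CPM + 0.1) in each of the 12 libraries of the 10 genes with the smallest p for a difference between the tumor-over-culture changes of the labels. Grey points are control-labelled (VC), blue points knockout-labelled cultures and red points knockout-labelled tumors, and the bar is the mean of the 3 log values. For Marcks the knockout-labelled cultures lie at 1.45 to 2.42 CPM, far below the other groups.

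Some named groups also held genes of this kind. Apob fell in knockout-labelled tumors by 6.59 and stood at -0.88 in control-labelled ones. In the TGF-beta target list 6 of 32 genes differed, all with the smaller log2 fold change in knockout-labelled libraries: Ccn2 at -1.64 against 0.41, Fn1 at 1.66 against 3.34, Postn at 4.16 against 6.10, Inhba at 1.42 against 2.54, Skil at 1.09 against 1.90 and Pmepa1 at 0.57 against 1.27. In the interferon list the 5 of 33 that differed were likewise smaller, among them Ifi44 at 3.99 against 7.24 and Gbp2 at 4.02 against 5.41. The interferon count rested on the tool: limma-voom called 1 of the 33, Irf9, and DESeq2 10, while they called 6 and 7 of the 32 TGF-beta target genes. In edgeR both shares lie above the 2.05% of all genes, and they are descriptions of lists, not tests. The cultures of the labels also differed. TGF-beta target sums were 5961.7, 6157.2 and 6030.1 CPM in knockout-labelled and 3911.5, 3845.5 and 3698.3 CPM in control-labelled cultures. Interferon sums were 798, 783 and 775 against 536, 528 and 522 CPM. In tumors the sums were 12153 ± 1062 and 13848 ± 2444 CPM for TGF-beta targets and 3104 ± 942 and 3451 ± 790 CPM for interferon genes. The part of the culture levels was not tested. Csf1 fell by 1.46 in knockout-labelled tumors and stood at -0.11 in control-labelled ones. Twist1, Il33, Pdgfra and Serpine2 had the larger log2 fold change in knockout-labelled libraries, and of these Il33 did not pass in limma-voom. No gene of the sterol, ribosome biogenesis, replication, mitosis or MHC class I lists differed in edgeR's quasi-likelihood test with Benjamini-Hochberg adjustment over all genes. An unadjusted p under 0.05 was found for 2, 6, 5, 6 and 3 of their genes in that order, and DESeq2 called 1 gene of ribosome biogenesis and 1 of replication. A missing call does not show that the effects were equal.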

How the data were processed

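RNA of 6 knockout-labelled and 6 control-labelled libraries was sequenced after ribosomal depletion with the KAPA RNA Hyper Prep kit, per the labels' protocols. The authors deposited raw read counts per gene in separate tables for cultures and tumors, each of 39017 genes. The submitters' processing notes list STAR 2.3.0e, featureCounts 1.4.4 and Trimmomatic 0.32, with the mm10 build. Strand use and the treatment of reads that map to several places are not given in the sources used here, so near-identical and antisense genes are uncertain. Gene names were matched by ID, and 37693 IDs were in GENCODE M21. Groups were taken from sample titles, and no column lacked a sample.

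Counts were filtered with filterByExpr, scaled with TMM and tested with edgeR 4.0.16 (quasi-likelihood, R 4.3.3), with Benjamini-Hochberg adjustment over all genes tested and a threshold of 0.05. The 6 knockout-labelled libraries entered the main fit. The difference between labels was the interaction in a fit of all 12. Each log2 fold change carries its standard error. CPM uses the library total. A bound for a gene without counts in cultures uses 3 counts per library. For single genes at 1 to 3 counts in cultures, levels or counts are given in place of a ratio. Bounds cover counting error only. Total counts of 12128993 to 21863223 per knockout-labelled library set the precision of low genes. Replicate numbers of cultures did not pair the libraries, and the check is given with the effects of other settings. The fits were tested on simulated data. Those data gave all groups the same spread and changed only a small share of genes, unlike the libraries compared here. They do not show how the fits behave where most genes move or where tumors vary more than cultures. The difference between labels recovered fewer of the changes put into those data than the tumor-over-culture fits and fell short of the minimum first set for all fits, which was then dropped for it, so real differences can be missed there.

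The comparison, the 38 gene lists (850 of 851 symbols matched) and the tests were chosen with earlier results of these data known. Named genes were, by rule, Pogz, the 10 strongest rises and the 10 strongest falls among called genes (groups apart, a mean log2 CPM of 1 or more, no pseudogene, clone name or structural RNA; taken among protein-coding genes of GENCODE M21, which left out Ighg1, Igkc and, in the next rule, an ID of Gbp2b), the 10 largest rises among genes of at least 10 CPM in cultures, the 10 called genes with the smallest p for the difference, and in each list up to 4 called members with the smallest p, or 2 of highest level where none was called. Further list members were named for their role or value after values were seen. Xist, Ptprc, the receptors, the subset of at least 10 CPM, the share of genes absent from cultures, the overlap of the comparisons, the gaps between labels, Fth1, Errfi1, Il7 and the promoters shown were chosen after values were seen. Some genes that the rule names are not reported here. Promoter sequences are from RefSeq (GRCm38.p6). The alternatives tried were scaling by RLE or by the upper quartile, a filter of 5 CPM or none, DESeq2 1.42.0, limma-voom (limma 3.58.1), an adjusted p of 0.01, glmTreat with a fold of 1.2, thinning to the smallest total, leaving out small structural RNA genes, 1 fit of all samples and leaving out each library.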

Additional observations from a re-analysis of the deposited data

Results flagged for a closer look

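For 45 genes named by rule, held in the gene lists or looked up later, the tumor-over-culture change differed between the labels in edgeR's interaction test (Benjamini-Hochberg adjusted p under 0.05 over 18419 genes, of which 377, or 2.05%, passed). The values in brackets are the knockout-labelled minus the control-labelled log2 fold change. Since the genes come partly from the top of that test, their number is no evidence of its own. DESeq2 called all 45. With limma-voom 37 passed, and Col12a1, Gbp2, Gbp3, Ifi44, Il33, Klf2, Nid1 and Xaf1 did not, at adjusted p of 0.0512 to 0.138.

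The 10 with the smallest p were Marcks (5.81), Zfhx4 (5.73), Gramd1b (5.27), Armcx4 (6.65), Tns4 (1.81), Rps6-ps1 (3.71), Id2 (4.13), Lcp1 (2.92), Csgalnact1 (2.07) and Hsd17b11 (-5.84). Marcks, Zfhx4, Gramd1b and Armcx4 were lowest in the knockout-labelled cultures. Of the genes that led the falls or rises of the knockout-labelled tumors, Apob (-5.75), Zfp979 (-4.87), Pls1 (-1.91) and Mal2 (-1.46) had the larger falls in knockout-labelled tumors, and Tmsb4x (1.35) and Spp1 (0.93) rose further.

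Matrix and TGF-beta genes with the lower log2 fold change in knockout-labelled libraries were Postn (-1.99), Fn1 (-1.73), Nid1 (-1.37), Ccn2 (-2.10), Skil (-0.86), Pmepa1 (-0.75) and Inhba (-1.17). Those with the higher one were Col12a1 (1.81), Serpine2 (6.62) and Pdgfra (1.76). Nid1 is nidogen, a linker of basement membranes, and Col12a1 a collagen that binds fibrils. Among mesenchymal, endothelial and epithelial genes, Twist1 (1.66), Axl (0.72) and Tie1 (6.55) lay higher and Cldn3 (-2.34) lower. Tie1, a receptor of endothelium, had no count in knockout-labelled cultures, so its fitted value depends on the prior count and is no bound. Serpine2 had 4 counts there. Axl is a receptor kinase and Cldn3 a claudin of tight junctions.

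The interferon genes Irf9 (-0.91), Gbp2 (-1.44), Gbp3 (-1.14), Ifi44 (-3.30) and Xaf1 (-1.27) had the smaller log2 fold change in knockout-labelled libraries. Of these only Irf9 passed in limma-voom too. Of cytokines, Csf1 (-1.40) lay lower and Csf2 (1.95), Il33 (4.67) and Il7 (2.81) higher. Il7, the growth factor of lymphocytes, stood at 1.62, 1.63 and 1.74 CPM in knockout-labelled cultures and 4.205, 7.13 and 5.83 CPM in their tumors, against 4.46, 5.47 and 5.13 and 1.27, 2.88 and 2.92 CPM in control-labelled ones. Fth1, the ferritin heavy chain, at 1.27, stood at 724, 719.8 and 773 and 1229, 1652 and 1140.4 CPM in knockout-labelled and 1258, 1192 and 1224 and 822, 1016 and 925 CPM in control-labelled cultures and tumors. Errfi1, an inhibitor of the EGF receptor, at -1.63, stood at 355, 373 and 373 and 198, 192 and 173 CPM, against 238, 226 and 226 and 415, 253 and 427 CPM. Other differences were in Klf4 (1.69), Klf2 (-1.53), Aldoc (-2.65) and Nupr1 (-0.94). Klf4 and Klf2 are early response factors, Aldoc is a glycolytic aldolase and Nupr1 a stress gene.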

How the results depend on the processing

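The comparison of knockout-labelled tumors and cultures called 7854 genes at an adjusted p of 0.01 and 8780 to 12332 without any 1 library, within 1.5 times the 10618 of the full fit under every alternative run. The count for the difference between labels moved more: from 377 to 953 with DESeq2, 125 at an adjusted p of 0.01, 232 with glmTreat, 185 after thinning to the smallest total, and 147 to 1588 without 1 library, highest without knockout-labelled tumor POGZ_KO_8454; the cause was not tested. A control-labelled culture left out gave 162 to 165, and control-labelled tumor POGZ_VC_8448 left out gave 629. No paired analysis was possible because knockout-labelled tumors and cultures share no replicate number; the fit of the difference with culture numbers as a replicate block called 131, and same-numbered cultures did not deviate together (r of -0.087, -0.011 and 0.023 over 18419 genes). No list count moved by more than 1.5 times under another scaling, and smaller changes were not counted as moves. The mitochondrial median was 0.63 with upper-quartile scaling. In each fit without 1 library the expression filter was run again. Such fits tested 17575 to 18115 genes, against 17311 in the full fit, so list members could enter or leave. Without 1 library, the number of list members that rose ranged over 3 to 11 for B and plasma, 6 to 12 for adipocytes, 1 to 2 for ID genes, 0 to 1 for sterol, 5 to 11 for ATF4 and 1 to 2 for homologous recombination. The number that fell ranged over 0 to 1 for T and NK, 0 to 1 for fibroblasts, 0 to 1 for adipocytes, 1 to 2 for keratinocyte, 0 to 1 for Schwann, 1 to 2 for collagen, 2 to 4 for TGF-beta ligand, 0 to 1 for EMT, 0 to 1 for MHC class I, 2 to 7 for hypoxia, 7 to 14 for ATF4, 0 to 1 for mitochondrial and 2 to 4 for immediate early genes. Medians ranged over 7.97 to 9.19 for dendritic, 7.92 to 9.96 for mast cells, 7.56 to 8.38 for endothelial cells, 0.72 to 2.29 for skeletal muscle, 6.09 to 6.88 for mammary, 9.15 to 9.69 for erythroid cells, 0.54 to 0.92 for Schwann, 0.32 to 0.84 for TGF-beta ligand, 0.45 to 1.70 for ID genes, 1.81 to 3.22 for cytokine, -0.29 to 0.16 for ATF4, 0.52 to 0.61 for mitochondrial, -1.38 to -1.03 for replication, -0.99 to -0.62 for homologous recombination, -0.15 to 0.08 for p53 targets and -0.25 to -0.19 for heterochromatin. For 3 of these lists the median of the full fit lay outside the range. It was 5.36 for mammary, or 4.22 with genes at 0 in culture at their bound, 9.78 for erythroid and -0.18 for heterochromatin genes. The ATF4 median turned to -0.29 without tumor POGZ_KO_8459 and the p53 median to 0.081 without tumor POGZ_KO_8454. Of 166 genes named in the main comparison, Prx, Ivl and Jchain lost the call in some fits, and these and Xbp1, Tpsb2 and Igha at an adjusted p of 0.01, with the direction kept. Where 1 library of a group was left out, the spread came from the remaining libraries. Depth limits genes near 3 counts per library. Fitted values of such genes, as for Tie1 and within the list medians, depend on the prior count.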
